A study of Mus musculus with 12 samples.

Results

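The 38 genes described here are antiviral interferon-stimulated genes, listed by symbol for their place in the interferon response, with earlier results of these data known. All 38 were found by symbol, each with 1 Ensembl ID, among the 23764 genes of the table, and all 38 are among the 14715 genes that passed the filter on low values. Cells that sense foreign nucleic acid secrete type I interferon, which binds its receptor and activates the transcription factor complex ISGF3. ISGF3 binds the interferon-stimulated response element (ISRE) and switches on genes whose products recognise viral RNA and DNA, degrade or sequester it, block viral entry, translation and release, and feed back on the response. In the monocyte and macrophage lineage, from which osteoclasts arise, interferon signalling is also known to restrain differentiation driven by RANKL, the cytokine that makes osteoclasts.

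RNA sequencing measured these genes in RAW264.7, an immortalized macrophage-like line labelled as coming from Balb/c mice. Every group received RANKL. The vehicle groups received RANKL with vehicle, and the treatment groups received RANKL with culture supernatant of the bacterium L. reuteri. RNA was harvested at day 1, 3 or 5, with 2 libraries in each of the 6 groups, 12 libraries in all. No group without RANKL was analysed here, all data come from 1 line, and the labels do not say which components the supernatant held. Libraries carry replicate numbers in the labels, which do not state that they are separate cultures. A p-value here therefore reflects library-to-library spread, which may be technical.

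The libraries were of 2 kinds, which bears on every result. Replicate 2 of days 3 and 5, in both arms, had 38.1 to 48.8% of reads assigned to nuclear genes that code for protein. The share was 85.2 to 87.6% for the 8 remaining libraries. Mitochondrial genes took 25.7 to 30.6% in the former and 3.64 to 5.97% in the latter. These 4 are called low-mRNA libraries below, and 1 term per day for them, shared by both arms, was part of the fit. Their share on nuclear protein-coding genes was 38.1% in vehicle against 47.1% under treatment at day 3, and 41.0% against 48.8% at day 5. The shared term does not take out that difference between arms. Library totals ran from 8071160 to 16781080 reads. Of the 9 macrophage markers all were detected, with summed levels of 24382 to 342367 normalised counts, and all 8 osteoclast markers were detected in at least 1 group. The macrophage sum was 174462 to 181372 in the treated libraries of day 1 against 132409 to 144802 in vehicle. Lyz2, at up to 284656, weighs most in these sums, as no other macrophage marker exceeded 14780.1. The difference between arms may thus be largely that of 1 gene, and was not split by marker. T cell, B cell, fibroblast and plasmacytoid dendritic cell markers together reached at most 42.1, 10.1, 3.13 and 145 normalised counts, and of the epithelial markers Epcam reached 15.5 while Cdh1 reached 621. Cox6a2, at up to 141.3, made up most of the highest plasmacytoid dendritic cell sum, while Siglech stayed at or below 5.7. The part of these levels in the results was not tested.

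Promoter windows from RefSeq (build GRCm38.p6, 250 bases before to 50 after each transcript start) were matched for 29 of the 38 genes by symbol. Dhx58, Zbp1, Ifi204, Oas2, Usp18, Parp9, Parp14, Mx2 and Rtp4 had no window. The ISRE core was searched on both strands as a pair of GAAA repeats with any 2 bases between them, and matches could overlap. It was present in 14 of the 29 genes (48.3%), against 3.99% of 27025 genes with a window. The stretches of bases -150 to -1 shown here come from 6 genes that rose under treatment and from Ifit1, which carries 2 cores but did not pass the test. They show how the core is placed and repeated ahead of the start. Capitals mark the ISRE core, which reads as TTTC repeats where it lies on the opposite strand.
Isg15: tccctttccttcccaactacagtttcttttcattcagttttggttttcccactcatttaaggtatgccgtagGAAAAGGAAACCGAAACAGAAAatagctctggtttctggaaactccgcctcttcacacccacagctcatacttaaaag
Rsad2: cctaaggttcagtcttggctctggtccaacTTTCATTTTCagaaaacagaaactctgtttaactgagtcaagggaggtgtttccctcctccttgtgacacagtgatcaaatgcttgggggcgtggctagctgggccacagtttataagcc
Oas3: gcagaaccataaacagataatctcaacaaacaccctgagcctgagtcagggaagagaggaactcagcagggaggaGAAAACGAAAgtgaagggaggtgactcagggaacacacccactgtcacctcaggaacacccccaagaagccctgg
Oas1a: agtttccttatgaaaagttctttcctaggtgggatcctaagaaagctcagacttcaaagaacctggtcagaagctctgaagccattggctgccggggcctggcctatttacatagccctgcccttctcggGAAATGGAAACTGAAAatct
Bst2: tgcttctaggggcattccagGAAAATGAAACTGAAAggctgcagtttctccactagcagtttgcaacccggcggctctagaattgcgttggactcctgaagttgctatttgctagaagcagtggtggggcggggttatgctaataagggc
Trim30a: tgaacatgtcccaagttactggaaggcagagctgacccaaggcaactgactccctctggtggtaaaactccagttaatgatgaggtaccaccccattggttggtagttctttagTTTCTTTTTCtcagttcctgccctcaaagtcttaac
Ifit1: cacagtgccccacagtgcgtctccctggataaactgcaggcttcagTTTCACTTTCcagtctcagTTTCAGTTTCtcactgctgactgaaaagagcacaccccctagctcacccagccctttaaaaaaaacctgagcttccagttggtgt

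The stretches lie at chr4:156200819-156200968 (Isg15), chr12:26456453-26456602 (Rsad2), chr5:120777660-120777809 (Oas3), chr5:120907526-120907675 (Oas1a), chr8:71537473-71537622 (Bst2) and chr7:104465194-104465343 (Trim30a), all on the minus strand, and chr19:34640739-34640888 (Ifit1) on the plus strand. Isg15 held 3 overlapping cores, which start 78, 72 and 66 bases before the transcript start. Oas1a and Bst2 each held 2 overlapping cores, the pair of Oas1a nearest the start at bases -20 and -14. Rsad2 and Trim30a held 1 core on the opposite strand, at bases -120 and -36. Ifit1 held 2 separate opposite-strand cores at bases -104 and -85. Other searched motifs were GAS (TTCNNNGAA), in 6 of the 29 genes (20.7%, against 9.55% of all genes), the kappaB site, also in 6 (20.7% against 9.55%), and AP-1 (TGANTCA), in 7 (24.1% against 8.97%). In the Bst2 window a kappaB match at base -142, a GAS match at base -136 and the first ISRE core at base -130 overlapped. A match describes these letters only, and does not show that a factor binds there.

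**Figure D1:**
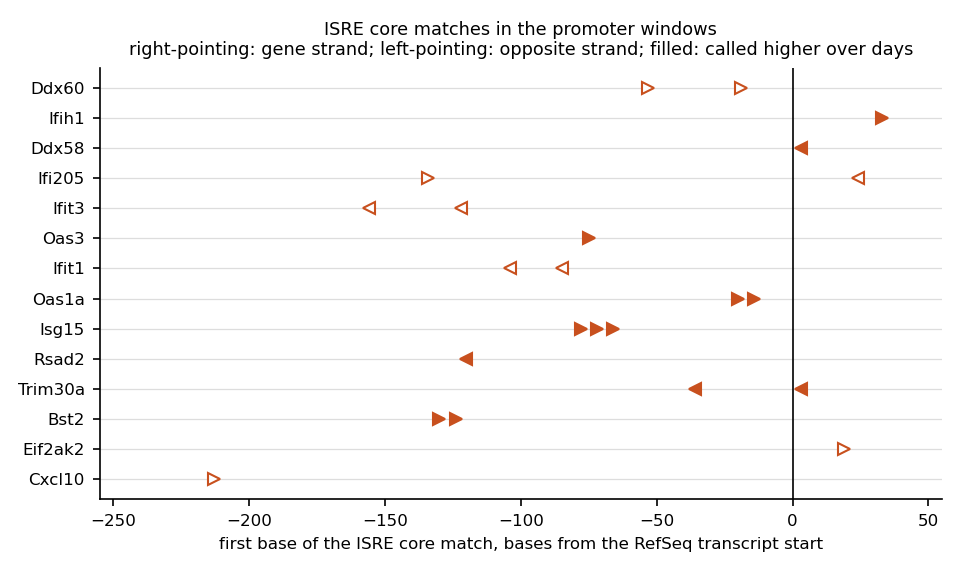
Position of each ISRE core match (x axis, bases from the RefSeq transcript start) in the 14 genes that hold one. Triangles point right for the gene's strand and left for the opposite strand, and filled triangles mark the 8 genes that rose in the mean over days. Matches lie both before and after the start, and Isg15 holds the only run of 3.

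The first comparison asked whether the supernatant changed these genes during RANKL exposure, averaged over days 1, 3 and 5. Of the 38 genes 18 rose under treatment and 0 fell (limma, Benjamini-Hochberg adjusted p under 0.05 over 14715 genes), against 2.22% of all tested genes called higher and 0.183% called lower. The largest rises were those of Rsad2, Isg15, Oasl2 and Mx2, by 2.32, 1.96, 1.93 and 1.62 on the log2 scale. At an unadjusted p under 0.05, 31 were higher and 0 lower. The 38 mean differences were above 0, with a median of 0.89 against 0.08 over all tested genes, except that Ifi205 stood at -0.052 under quantile normalization and -0.048 when scaled to nuclear protein-coding reads. A log2 difference here is between values of log2(normalised count + 1), which understates the change of low genes with reads in both libraries. Rsad2, Isg15, Oasl2 and Mx2 were at 0 in the low-mRNA vehicle library of day 3, so their sizes depend on the pseudocount. With that zero set to 3 reads, the treated library of the pair was at least 2.13-, 5.35-, 1.79- and 1.07-fold higher. In bulk samples a change in the number of cells that express a gene and a change in RNA per cell cannot be told apart.

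Leaving out the low-mRNA libraries leaves 8, with 1 library in each group at days 3 and 5. The spread in that fit comes from the day 1 pairs alone (2 residual degrees of freedom). It is assumed that each lone library varies as those pairs do. On that assumption 31 of the 38 were called higher, where 4.66% of all genes were called higher and 5.62% lower. Without a term for the low-mRNA libraries the 12-library fit called 0 members in any direction by limma, with an adjusted p of 1 for each of the 18 and 4 members at an unadjusted p under 0.05. limma-voom on the recovered reads, with the term, called 30, where 3.7% of all genes were called higher. Without the filter on low values the limma fit called 8, where 0.33% of all genes were called higher. When library size was taken from nuclear protein-coding reads, an alternative chosen after seeing the data, 19 were called higher, among 648 genes called of which 2.99% of all tested genes were higher.

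**Figure D2:**
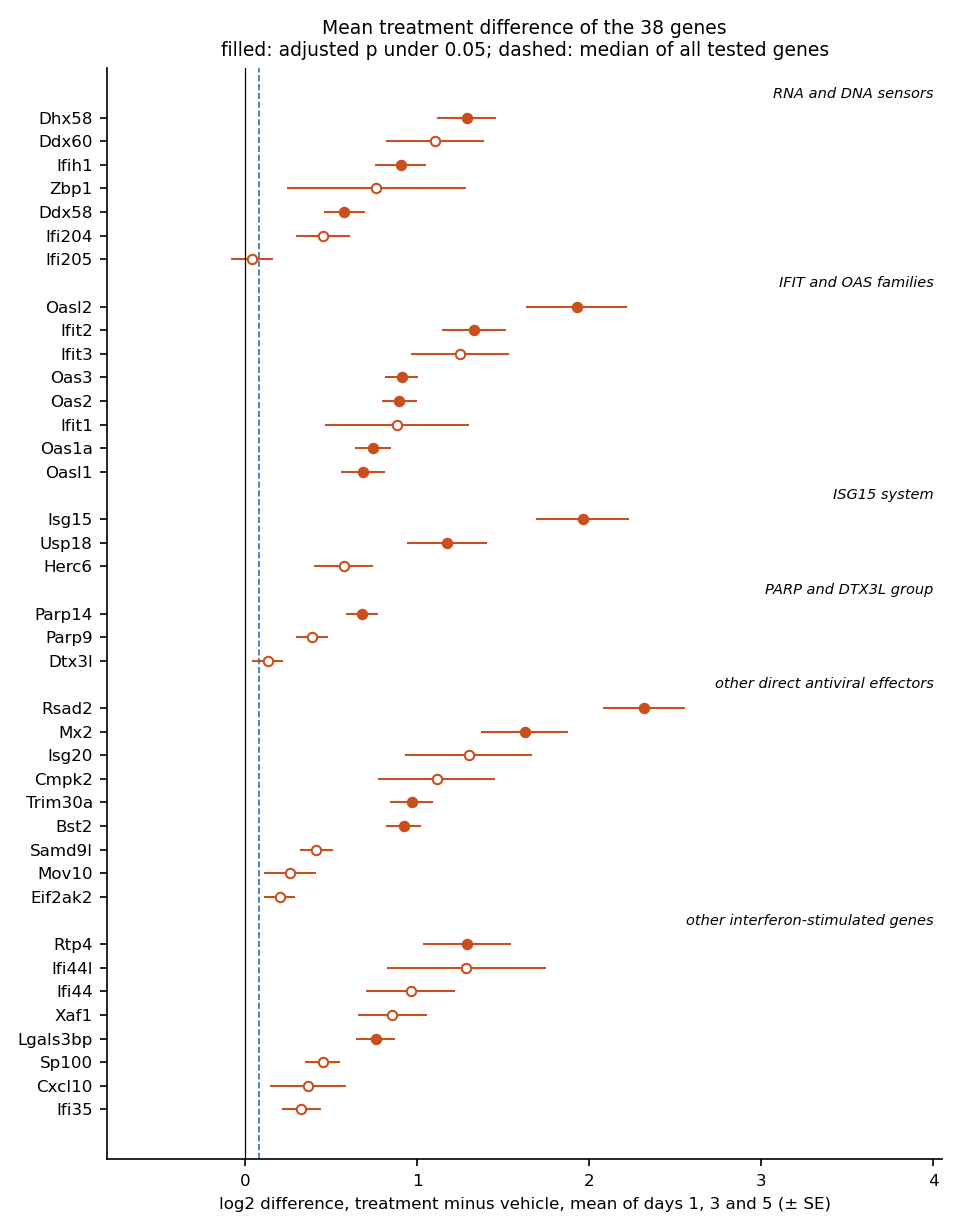
Mean treatment difference of each of the 38 genes over days 1, 3 and 5 (x axis, log2 difference with its standard error from limma), grouped by role. Filled points passed an adjusted p under 0.05, and the dashed line is the median of all tested genes, 0.08. The points run from Ifi205 at 0.04, which is at -0.052 under quantile normalization and -0.048 when scaled to nuclear protein-coding reads, to Rsad2 at 2.32.

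Of the 7 sensors of viral RNA and DNA, Dhx58, Ifih1 and Ddx58 rose. These 3 encode LGP2, MDA5 and RIG-I, the helicases that recognise double-stranded and triphosphorylated RNA in the cytoplasm. In the values that follow, in normalised counts, vehicle is given before treatment and replicate 1 before replicate 2, and replicate 2 at days 3 and 5 is the low-mRNA library. Dhx58, which tunes the other two helicases, stood at 140.1 and 125.7 normalised counts in vehicle against 267.3 and 266.9 under treatment at day 1, at 93.0 and 7.3 against 245.7 and 33.1 at day 3, and at 208.9 and 9.9 against 305.5 and 35.6 at day 5. Each treated library lay above the vehicle library of its kind at every day. The mean difference was 1.29 ± 0.17 (SE, log2), with an adjusted p of 0.004315. Ifih1 stood at 315.1 and 328.5 against 486.4 and 598.9 at day 1, 194.6 and 17.6 against 320.9 and 61.4 at day 3, and 370.8 and 42.4 against 714.8 and 61.6 at day 5. It too was higher under treatment in each pair of like libraries, by 0.90 ± 0.15 (adjusted p 0.01127). The call was lost without either vehicle library of day 1 or without treatment day 1 replicate 2. For Ddx58 the levels were 442.3 and 445.2 against 828.4 and 770.8 at day 1, 286.0 and 97.0 against 601.0 and 124.4 at day 3, and 658.8 and 89.0 against 897.4 and 83.0 at day 5. Here the low-mRNA libraries of day 5 went the other way, and the mean rise was 0.58 ± 0.12 (adjusted p 0.03445). This call was kept in 4 of 12 fits that each left out 1 library, being lost without any 1 library of day 1 or day 5.

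The other 4 sensors did not pass the test. Ddx60, a helicase reported to act with RIG-I, differed by 1.11 (adjusted p 0.08163) and was higher in each pair of like libraries. Zbp1, a sensor of Z-form nucleic acid that triggers necroptosis, stood at 10.6 and 9.9 against 32.7 and 31.7 at day 1, 4.7 and 8.8 against 19.6 and 0 at day 3, and 18.4 and 0 against 65.1 and 1.2 at day 5. It was higher under treatment in every pair except the low-mRNA libraries of day 3, and had the lowest day 3 difference of the 38, -0.72. Ifi204 and Ifi205 belong to the family of HIN-domain proteins that bind DNA. Ifi204 stood at 306.0 and 286.4 against 568.9 and 546.7 at day 1, at 244.6 and 611.4 against 345.9 and 398.4 at day 3, and at 538.3 and 216.2 against 1059.8 and 222.8 at day 5. Only its low-mRNA pair of day 3 was lower under treatment. Ifi205 stood at 72.0 and 79.9 against 93.7 and 111.2 at day 1, 60.9 and 445.4 against 48.5 and 475.6 at day 3, and 131.6 and 262.8 against 124.8 and 214.5 at day 5. Both of its pairs at day 5 were lower under treatment, and its mean difference, 0.04, was the smallest of the 38. The genes of this family resemble each other, so reads may be split among them.

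Of the 8 genes of the IFIT and OAS families, 6 rose: Oas3, Oas2, Ifit2, Oas1a, Oasl2 and Oasl1. IFIT proteins bind viral RNA and hinder its translation, and OAS enzymes make 2-5A, the messenger that activates RNase L to cut RNA. Oas3, the OAS that binds long double-stranded RNA, stood at 924.0 and 828.5 in vehicle against 1686.9 and 1575.0 under treatment at day 1, 496.2 and 88.2 against 1043.2 and 162.2 at day 3, and 615.6 and 55.1 against 1271.7 and 88.9 at day 5. Its treated libraries were higher in each pair of like libraries, with a mean rise of 0.91 ± 0.10 (adjusted p 0.001385). Oas2 stood at 313.6 and 306.1 against 620.4 and 622.8 at day 1, 299.3 and 89.7 against 680.1 and 148.0 at day 3, and 535.5 and 118.7 against 883.6 and 201.5 at day 5. All 6 of its pairs were again higher under treatment, the rise being 0.90 ± 0.10 (adjusted p 0.0016). For Ifit2 the values were 216.6 and 246.9 against 404.7 and 444.9 at day 1, 57.8 and 1.5 against 148.7 and 17.3 at day 3, and 291.7 and 11.3 against 577.1 and 23.7 at day 5. Ifit2 was higher under treatment throughout, by 1.33 ± 0.19 (adjusted p 0.005179), although its vehicle level at day 3 was low in both libraries. Oas1a, whose reads may be shared with its near copies, rose by 0.75, Oasl2 by 1.93 and Oasl1, which limits translation of Irf7, by 0.68. The Oasl1 call was kept in 6 of 12 fits that left out 1 library, being lost without any 1 of the 4 libraries of day 1 or the low-mRNA library of either arm at day 5.

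Ifit3, a partner of Ifit1, and Ifit1 itself, which binds capped RNA that lacks ribose methylation, did not pass the test, with mean differences of 1.25 (adjusted p 0.05102) and 0.88 (adjusted p 0.3491). Ifit1 stood at 38.6 and 28.7 against 91.1 and 77.9 at day 1, 4.7 and 1.5 against 32.9 and 6.3 at day 3, and 70.9 and 5.7 against 170.7 and 0 at day 5. Its 5 other pairs were higher under treatment, and the treated low-mRNA library of day 5 was at 0, which gave Ifit1 the lowest day 5 difference of the 38, -0.74. In the 8 libraries alone its difference was 1.71.

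**Figure D3:**
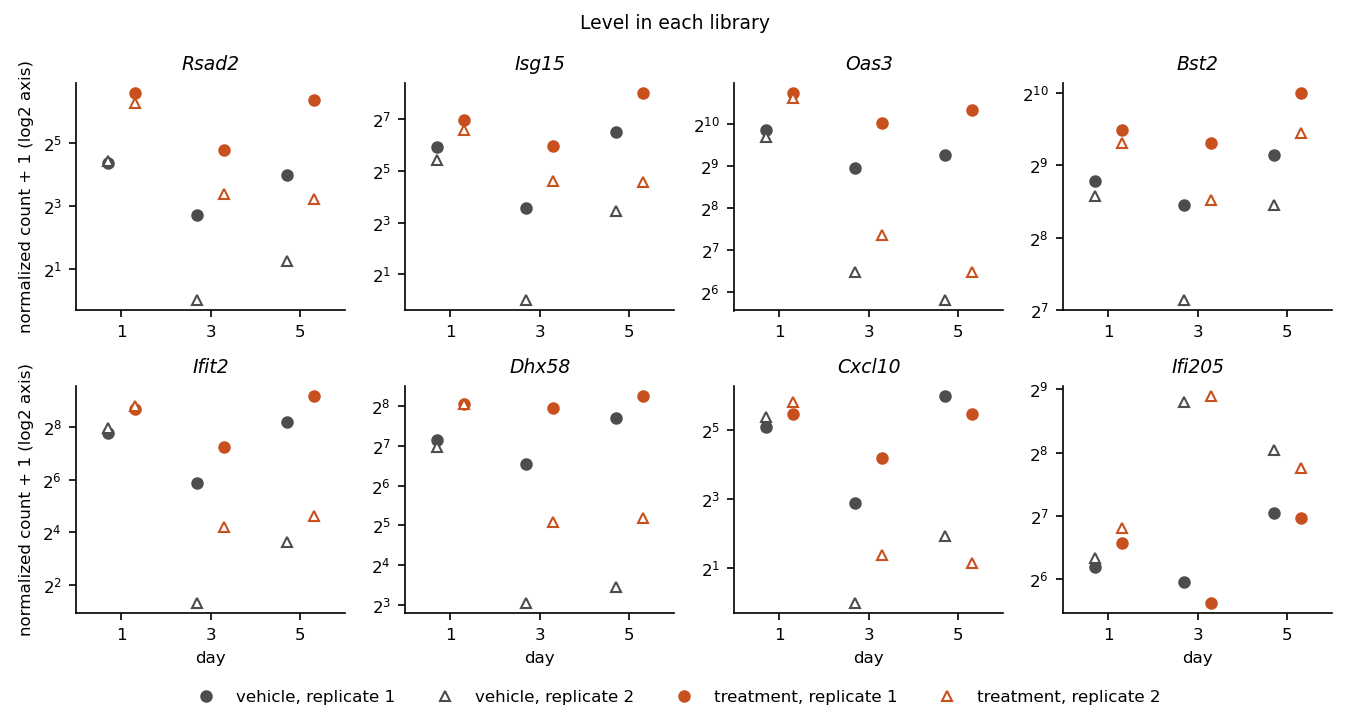
Level of 8 of the genes in each of the 12 libraries (y axis, normalised count + 1, log2 scale; x axis, day). Grey is vehicle and orange treatment, filled circles replicate 1 and open triangles replicate 2, which at days 3 and 5 is the low-mRNA library. Rsad2, Isg15, Oas3, Bst2, Ifit2 and Dhx58 were higher under treatment in every pair of like libraries, while Cxcl10 and Ifi205 were lower in both pairs of day 5. The low-mRNA libraries of Cxcl10 at day 5 held under 3 reads each.

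In the ISG15 system, Isg15 and Usp18 rose and Herc6 did not pass the test. Isg15 is the ubiquitin-like protein that is attached to newly made proteins, Usp18 removes it and damps the interferon receptor, and Herc6 is the ligase that attaches it in mice. Isg15 stood at 60.6 and 42.2 against 126.3 and 94.1 at day 1, 10.9 and 0 against 61.0 and 23.6 at day 3, and 91.1 and 9.9 against 256.0 and 22.5 at day 5. The treated libraries were higher in each pair of like libraries, and at day 3 both exceeded both vehicle libraries. The mean rise was 1.96 ± 0.27 (adjusted p 0.004991). For Usp18 the levels were 62.1 and 31.4 against 123.7 and 121.5 at day 1, 38.3 and 19.1 against 100.2 and 31.5 at day 3, and 75.5 and 32.5 against 262.4 and 40.3 at day 5. It was higher in all 6 pairs, by 1.17 ± 0.23 (adjusted p 0.02751), and the call was kept in 5 of 12 fits that left out 1 library. It was lost without vehicle day 1 replicate 2, either treated library of day 1, and, in either arm, replicate 2 of day 3 or replicate 1 of day 5. Herc6 was higher in all 6 pairs as well, by only 1.5 normalised counts in the low-mRNA pair of day 5. Its mean difference was 0.57 (adjusted p 0.1308).

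Of the PARP and DTX3L group, only Parp14 rose. Parp9 and Dtx3l form a complex of an ADP-ribosyltransferase and a ubiquitin ligase, and Parp14 is a mono-ADP-ribosyltransferase of macrophages. Parp14 stood at 717.2 and 630.2 against 1143.8 and 1188.3 at day 1, 358.6 and 61.7 against 591.6 and 81.9 at day 3, and 1143.8 and 94.7 against 1897.5 and 148.1 at day 5, a mean rise of 0.68 ± 0.09 (adjusted p 0.005001). Parp9 stood at 628.6 and 593.3 against 748.5 and 829.0 at day 1, 435.2 and 79.4 against 589.3 and 118.1 at day 3, and 681.8 and 107.4 against 913.9 and 120.9 at day 5. Both genes were higher in all 6 pairs, and the mean difference of Parp9 was 0.39 (adjusted p 0.06544). In the low-mRNA pairs most genes were higher under treatment, with medians of all genes of 0.46 at day 3 and 0.23 at day 5. Parp14 at day 3 (0.40) and Parp9 at day 5 (0.17) lay below these medians. Parp9 at day 3 (0.57) and Parp14 at day 5 (0.64) lay above them. Dtx3l stood at 640.0 and 644.5 against 799.2 and 731.5 at day 1, 517.3 and 242.5 against 610.4 and 261.4 at day 3, and 824.5 and 221.8 against 870.8 and 201.5 at day 5. Dtx3l differed little, by 0.13 (adjusted p 0.5097), and its low-mRNA pair of day 5 was lower under treatment. The 3 genes lie next to each other on chromosome 16.

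Of the 9 other direct antiviral effectors, Rsad2, Bst2, Trim30a and Mx2 rose. Rsad2 encodes viperin, which makes a chain-terminating nucleotide from CTP. It stood at 19.7 and 20.6 normalised counts in vehicle against 95.4 and 77.0 under treatment at day 1, 5.5 and 0 against 26.6 and 9.4 at day 3, and 14.7 and 1.4 against 82.6 and 8.3 at day 5. Treated libraries were higher in each pair, and the mean rise of 2.32 ± 0.24 (adjusted p 0.001285) was the largest of the 38 in the 12-library fit, while Ifi44l and Oasl2, at 2.28 and 2.20, exceeded the 2.18 of Rsad2 in the 8-library fit. Bst2, or tetherin, which holds budding virus at the cell surface, stood at 440.8 and 380.6 against 720.1 and 634.8 at day 1, 349.3 and 139.6 against 635.5 and 366.9 at day 3, and 566.8 and 349.0 against 1020.3 and 694.5 at day 5. At all 3 days both treated libraries of Bst2 exceeded both vehicle libraries, across library kinds, and the rise was 0.92 ± 0.10 (adjusted p 0.0016). Trim30a, a TRIM protein that restrains NF-kappaB signalling, stood at 218.9 and 196.6 against 415.1 and 398.7 at day 1, 251.6 and 38.2 against 456.2 and 105.5 at day 3, and 330.3 and 77.7 against 706.5 and 109.0 at day 5. It was higher in all 6 pairs, by 0.97 ± 0.13 (adjusted p 0.003477), and reads may be shared with its close relatives. Mx2, of the dynamin-like Mx family, is annotated as a polymorphic pseudogene in the reference. It rose by 1.62 from low levels of 12.1 and 8.1 in vehicle at day 1, a call lost without vehicle day 1 replicate 2 or treatment day 1 replicate 1.

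The other 5 effectors did not pass. Samd9l, a translation inhibitor, missed the threshold at 0.41 (adjusted p 0.05056), and Isg20, an exonuclease, differed by 1.30 (adjusted p 0.1082). Both were higher in all 6 pairs, Isg20 by only 0.8 normalised counts in the ordinary pair of day 3. In the low-mRNA pairs Samd9l differed by 0.41 at day 3, below the median of 0.46 of all genes. At day 5 it differed by 0.73, above their median of 0.23. Cmpk2, the nucleotide kinase encoded beside Rsad2 on the opposite strand of chromosome 12, differed by 1.11 (adjusted p 0.1362). Eif2ak2, which encodes PKR, the kinase that halts translation on double-stranded RNA, stood at 1186.0 and 1251.3 against 1428.2 and 1409.0 at day 1, 983.7 and 751.1 against 1324.9 and 760.6 at day 3, and 1341.6 and 614.6 against 1679.1 and 613.9 at day 5. Its day 1 libraries did not overlap between arms, yet its day 1 difference of 0.22 was the smallest of the 38. Mov10, an RNA helicase that restrains retroelements, stood at 142.4 and 114.9 against 213.1 and 189.1 at day 1, 131.3 and 42.6 against 135.4 and 56.7 at day 3, and 151.8 and 137.1 against 196.4 and 93.6 at day 5. The low-mRNA pair of day 5 was lower under treatment, and the mean difference was 0.26 (adjusted p 0.4356).

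Among 8 other interferon-stimulated genes, Lgals3bp and Rtp4 rose. Lgals3bp, a secreted glycoprotein that binds galectins, stood at 1422.3 and 1263.9 against 1845.8 and 1752.9 at day 1, 1010.3 and 123.5 against 1542.5 and 338.6 at day 3, and 1562.5 and 187.9 against 2538.0 and 365.0 at day 5. It was higher in all 6 pairs, by 0.76 ± 0.11 (adjusted p 0.007573), a call lost without the low-mRNA library of either arm at day 5. Rtp4, a receptor transporter protein, stood at 43.9 and 44.9 against 150.4 and 136.9 at day 1, 52.4 and 5.9 against 183.9 and 9.4 at day 3, and 81.9 and 7.1 against 329.4 and 7.1 at day 5. Its rise of 1.29 ± 0.26 (adjusted p 0.02735) came with large differences between ordinary libraries and level values in the low-mRNA pair of day 5, and the call was kept in 7 of 12 fits that left out 1 library, being lost without any 1 library of day 1 or treatment day 5 replicate 1. Sp100, a scaffold of PML nuclear bodies, stood at 463.5 and 416.5 against 577.5 and 655.3 at day 1, 332.9 and 126.4 against 468.0 and 157.5 at day 3, and 720.5 and 165.3 against 1169.0 and 194.4 at day 5. Although all 6 pairs were higher under treatment, its difference of 0.45 had an adjusted p of 0.05056. In the low-mRNA pairs Sp100 differed by 0.31 at day 3, below the median of 0.46 of all genes, and by 0.23 at day 5, level with it.

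Cxcl10, the chemokine that draws CXCR3-bearing lymphocytes, had the least uniform course of this group. It stood at 32.6 and 40.4 against 43.0 and 54.8 at day 1, 6.3 and 0 against 17.2 and 1.6 at day 3, and 61.7 and 2.8 against 43.1 and 1.2 at day 5. Its treated libraries were higher at day 1 and in both pairs of day 3, and lower in both pairs of day 5. At both of these later days its low-mRNA libraries held under 3 reads each. The mean difference of Cxcl10 was 0.37 (adjusted p 0.463). The other 4 did not pass either. Xaf1, an inhibitor of the XIAP survival protein, differed by 0.86 (adjusted p 0.05698), Ifi44 by 0.96, Ifi44l by 1.29 and Ifi35 by 0.33. Ifi44l was at 0 in all 4 low-mRNA libraries, and in the 8 others its difference was 2.28.

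Within single days fewer of the 38 passed the test. At day 1, where all 4 libraries were of the ordinary kind, both treated libraries exceeded both vehicle libraries for 38 of 38 genes, against 21.4% of all tested genes. The median difference of the 38 was 0.86, with -0.04 over all genes. Day 1 means ± SD (n = 2) were, in vehicle and under treatment, 20.2 ± 0.675 and 86.2 ± 13.0 normalised counts for Rsad2 and 310 ± 5.27 and 622 ± 1.67 for Oas2. In the 12-library fit 0 of 38 passed an adjusted p under 0.05 (limma; background 0.0408%), while 26 were higher at an unadjusted p under 0.05 and 0 were lower. The 8-library fit called 25 higher and 0 lower (background 3.12% and 2.62%) and limma-voom on recovered reads called 10. By limma-voom 0.52% of all genes were called higher at day 1. At day 3, 33 of 38 were higher under treatment in both pairs of like libraries, against 37.5% of all genes, and the median difference was 1.03 against 0.23. With library size from nuclear protein-coding reads, these medians were 0.88 and 0.09. Isg15 was the 1 gene that passed (limma; background 0.068%), with a rise of 3.50 ± 0.47 and an adjusted p of 0.02807. Its vehicle library of replicate 2 was at 0, so the fitted size depends on the pseudocount, and that pair alone was at least 5.35-fold higher with the zero set to 3 reads. The Isg15 call was lost without any 1 of 7 libraries: the 4 of day 1, the low-mRNA library of either arm at day 3, which left a difference of 2.38, and replicate 1 of treatment day 5. The 8-library fit, with 1 library an arm at this day and its spread from day 1, called Oas2 and Ddx58 instead. At day 5, 27 of 38 were higher in both pairs (26.8% of all genes) and Cxcl10 and Ifi205 were lower in both (21.8% of all genes). For Cxcl10 the low-mRNA pair of day 5 held under 3 reads in each library. The median of the 38 was 0.76 against 0.07. By limma 0 of 38 passed over 12 libraries (background 0.279% higher, 0.129% lower), 20 were higher at an unadjusted p under 0.05, and the 8-library fit, again with 1 library an arm and day 1 spread, called 19 (background 2.54%).

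**Figure D4:**
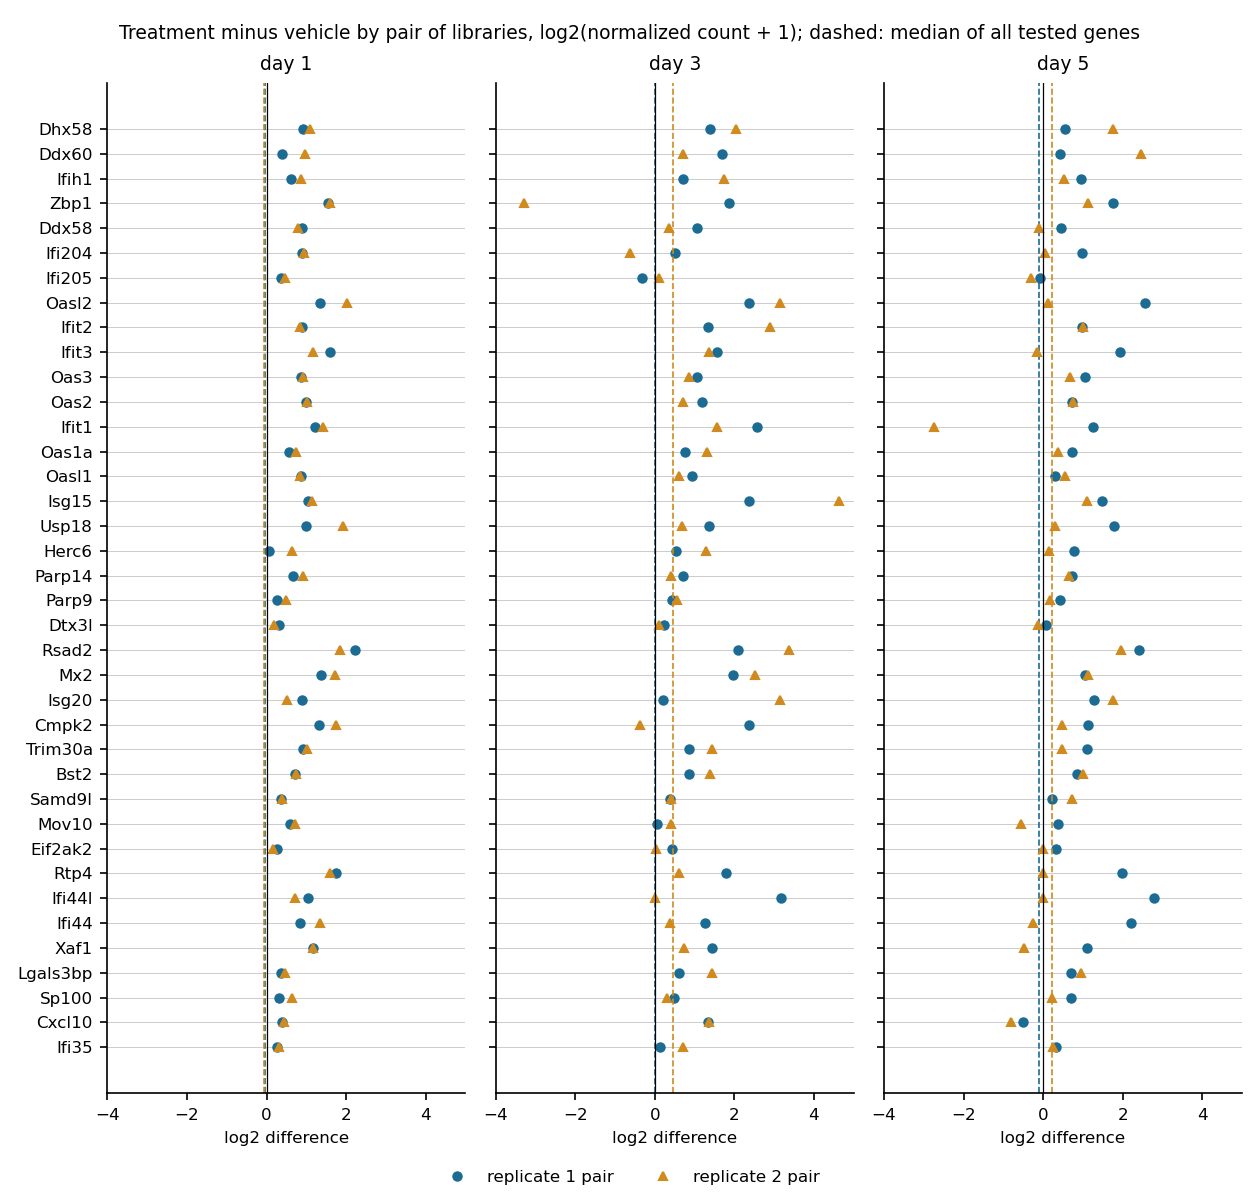
Treatment minus vehicle for each gene (x axis, log2 difference), by day. Circles pair the replicate 1 libraries and triangles the replicate 2 libraries, which at days 3 and 5 are the low-mRNA ones, and dashed lines are the median of all tested genes in each pair. At day 1 all 38 genes lie above 0 in both pairs, and 10 of the low-mRNA triangles of day 5 lie below 0.

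The pairs of ordinary libraries gave close values, with medians over the 38 genes of 0.88 and 0.89 at day 1, 1.07 at day 3 and 0.90 at day 5, where the medians of all genes lay between -0.09 and -0.01. Of the 38, 37 were higher under treatment in the ordinary pair of day 3 and 36 in that of day 5. In the low-mRNA pairs the medians were 0.71 at day 3 and 0.33 at day 5, and those of all genes 0.46 and 0.23. With zeros set to the floor of 3 reads the same medians of the 38 were 0.66 and 0.23. In both low-mRNA vehicle libraries 16 of the 38 genes had under 10 reads. In these pairs 34 of 38 were higher at day 3, where 77.6% of all genes were, and 27 at day 5, where 68.2% were. A gene higher in a low-mRNA pair thus moved as most genes did. Treated libraries lay above vehicle at every day, in each pair of like libraries at days 3 and 5 and without overlap at day 1, for 24 of 38 genes, against 6.37% of all tested genes. Of the 24, Rtp4 is counted although its low-mRNA pair of day 5 is level to 1 decimal. The smallest gaps of Oasl2, Isg20, Mx2 and Herc6 in a pair of days 3 and 5 were 0.5, 0.8, 1.2 and 1.5 normalised counts. As 1 read is 0.757 to 1.57 normalised counts by library, these gaps give no direction beyond counting error. The remaining genes had gaps of at least 6.9, but some of these are also small against counting error. Ddx60 stood at 10.3 against 17.3 in the low-mRNA pair of day 3, and Usp18 at 32.5 against 40.3 in that of day 5. The count of 24 therefore includes further pairs whose direction is uncertain. By role the 24 were 3 of 7 sensors, 6 of 8 IFIT and OAS genes, 3 of 3 of the ISG15 system, 2 of 3 of the PARP and DTX3L group, 6 of 9 other effectors and 4 of 8 other genes.

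Whether the treatment difference changed between days was tested with 1 F test per gene over the 3 days. It called 0 of the 38 and 0 of all genes (limma; background 0%), and Isg15, Cxcl10 and Ifit2 had an unadjusted p under 0.05, of 0.0076, 0.0127 and 0.0386. limma-voom on recovered reads also called 0. The smallest adjusted p of the 38 was 0.808.

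The low-mRNA libraries held less of most of these transcripts than the ordinary library of the same group. Replicate 2 was lower than replicate 1 for 33 of 38 genes in vehicle day 3, 35 in treatment day 3, 37 in vehicle day 5 and 37 in treatment day 5, with median log2 differences of -1.83, -2.19, -2.87 and -3.12. Over all tested genes 82.5, 78.4, 78.8 and 75.2% were lower in replicate 2 of the same groups, with medians of -1.71, -1.20, -1.28 and -0.92. Ifi205 was higher in replicate 2 in all 4 groups, by 2.85 and 3.27 at day 3 and by 0.99 and 0.78 at day 5. Ifi204 was higher in replicate 2 in both day 3 groups, by 1.32 in vehicle and 0.20 under treatment. Library kind and replicate number cannot be told apart at these days.

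The course of the 38 genes under RANKL without supernatant was read from the vehicle groups. As the low-mRNA term is shared by both arms, the fitted vehicle values of days 3 and 5 also draw on the treated libraries. From day 1 to day 3, Ifit2, Cxcl10, Isg15, Parp14 and Rsad2 fell and none of the 38 rose (limma; background 2% lower, 0.87% higher). Ifit2 fell by 2.37 ± 0.36 on the log2 scale (adjusted p 0.00699), and the log2 differences were -2.37 for Cxcl10 (adjusted p 0.017), -2.67 for Isg15 (adjusted p 0.0259), -0.82 for Parp14 (adjusted p 0.041) and -2.03 for Rsad2 (adjusted p 0.0469). In the low-mRNA vehicle library of day 3 Cxcl10, Isg15 and Rsad2 were at 0 and Ifit2 at 1.5, so these 4 sizes depend on the pseudocount. From the ordinary vehicle libraries alone the differences were -1.98 for Ifit2, -2.36 for Cxcl10, -2.11 for Isg15, -0.90 for Parp14 and -1.71 for Rsad2. The median of the 38 was -0.57, against -0.08 for all genes, and 32 of 38 estimates were below 0. From day 1 to day 5, Samd9l and Parp14 rose and none fell (background 1.62% higher, 1.31% lower). Samd9l rose by 1.27 ± 0.18 (adjusted p 0.00779), from 706.6 and 707.3 at day 1 to 1861.5 in the ordinary library of day 5, where the low-mRNA library stood at 142.7. Parp14 rose by 0.79 (adjusted p 0.0493). Leaving out either vehicle library of day 1 took the count of calls to 0 at both days. Without the filter on low values it was 0 at day 3 and 1 at day 5, and with the replicate number as a block 0 at both. At day 5 the 38 genes had a median of 0.69, against -0.09 for all genes. Without the low-mRNA term these medians were -0.84 and -0.59, so the direction of the set depends on that term.

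These time effects depend on how the low-mRNA libraries, of which day 1 has none, were fitted. In the 8 ordinary libraries vehicle has 1 library at day 3 and 1 at day 5, and the spread comes from day 1. That fit called 20 of the 38 lower and 0 higher at day 3 (background 10% and 9.69%), and at day 5 it called 15 higher (14.4%) and Oas3 alone lower (15%). Without the term the limma fit called 0 at both days, with 2 members at an unadjusted p under 0.05 at day 3 and 0 at day 5, and Samd9l and Parp14 at day 5 stood at -0.45 and -1.02. The direct difference between days 3 and 5 in vehicle was not tested. The growth protocol names 2 media without assigning them to libraries, and the part of the medium was not tested.

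**Figure D5:**
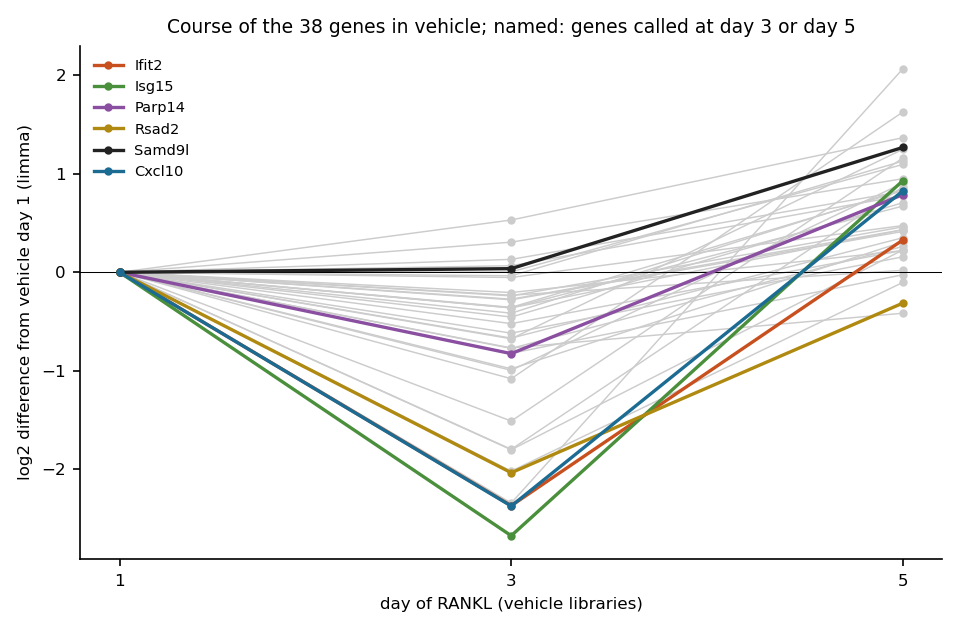
Course of the 38 genes in vehicle (y axis, log2 difference from vehicle day 1 by limma; x axis, day). Coloured lines are the 6 genes called at day 3 or day 5, and grey lines the other 32. At day 3 the estimates of 32 genes lie below 0, and at day 5 those of 34 lie above it. The low-mRNA term is shared by both arms, so treated libraries enter these values. Without that term the day 5 median of the 38 was -0.84.

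The upstream pathway was covered by 34 further genes of interferon induction and signalling, of which 33 were in the table and 31 passed the filter. In the mean over days Irf7 and Ikbke were among those that rose under treatment, and 0 fell. Irf7, the transcription factor that amplifies type I interferon, stood at 207.5 and 180.4 against 448.6 and 411.5 at day 1, 112.5 and 55.9 against 350.6 and 111.8 at day 3, and 212.6 and 55.1 against 667.1 and 106.7 at day 5. Its rise of 1.25 ± 0.14 (adjusted p 0.00147) was seen in all 6 pairs. Ikbke, a kinase that phosphorylates IRF3 and IRF7, stood at 114.4 and 97.8 against 260.4 and 276.3 at day 1, 32.8 and 29.4 against 133.0 and 126.0 at day 3, and 434.3 and 56.5 against 575.3 and 329.5 at day 5, a rise of 1.61 ± 0.22 (adjusted p 0.00477). Irf9, the DNA-binding part of ISGF3, did not pass, with a difference of 0.45 (adjusted p 0.0765). Over the 31 genes the median difference was 0.26, between that of the 38 genes and that of all genes. Ifnb1, the gene of interferon beta, was at 1.7 normalised counts in 1 treated library of day 1 and at 0 in the other 11, and Socs1 reached 6.9. Both were under the filter. At single days 0 of the 31 passed, and in vehicle Irf8 rose from day 1 to day 5, by 0.97 (adjusted p 0.047).

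The ISRE core and the treatment difference were set side by side. Of the 14 genes with a core 8 rose in the mean over days, with a median difference of 0.91, and of the 15 without one 4 rose, with a median of 0.76. Those with a core include Isg15, Rsad2, Oas3, Oas1a, Bst2 and Trim30a, whose stretches are printed above. Ddx60, Ifi205, Ifit1, Ifit3, Eif2ak2 and Cxcl10 hold a core and did not pass. Dhx58, Oas2, Usp18, Parp14, Mx2 and Rtp4 rose but have no window, so they are outside this comparison. Among 355 other tested genes with a core 6.48% were called higher, with a median of 0.13, against 2.21% of 9141 without one, with a median of 0.09. These are descriptions of the windows with no test.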

How the data were processed

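Per the labels' protocols, RNA from cells lysed in Trizol was made into libraries with an Illumina TruSeq RNA kit. The submitters' processing notes name TopHat2, SAMtools, DESeq2 and build mm9. Not given in the sources used here were their versions, the annotation and how reads were counted, by strand or not. The table as deposited, whose values the authors gave as log2, holds 24757 rows for 23764 Ensembl IDs, and its 993 repeated rows were equal and were dropped. The values were found to be log2(normalised count + 8), with an equal total in each library, and the normalised counts to be whole reads times 1 factor per library. Equal totals mean that a library with much mitochondrial RNA shows lower values for other genes. Symbols are those of the table, and counts are not adjusted for gene length, so levels are compared only within a gene.

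log2(normalised count + 1) was fitted with limma 3.58.1 in R 4.3.3, with 6 group means and, at days 3 and 5, a term for the low-mRNA libraries (under 60% of reads on nuclear protein-coding genes), which left 4 residual degrees of freedom. Genes with a mean normalised count of at least 10 in at least 1 group were tested, 14715 in all, and p-values were adjusted over all of them by Benjamini and Hochberg, with a threshold of 0.05. The fit was also run on data simulated from its own model, with changes only in genes of higher level. That run cannot show how changes in genes with few reads are recovered, and no result here rests on it. As alternatives, the fit was repeated with the replicate number as a block, leaving out 1 library at a time, without the filter, with quantile normalization, with pseudocounts of 0.5 and 5, without the low-mRNA term, on the 8 ordinary libraries alone, on the deposited values, with limma-voom on recovered reads, on only the libraries of the days compared, and with scaling to nuclear protein-coding reads, the last chosen after seeing the data.

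The members, their roles and the other lists were chosen with earlier results of these data known. Values in every library are given for the 2 members of each role with the smallest p for the mean effect (3 where the role has over 6 members), for those with the highest and lowest difference at a day, and for those lower under treatment in a day's mean. One gene of the pathway list is not reported here. Promoter sequences are from RefSeq, build GRCm38.p6, and no coordinates of the authors' build were used. Figures were drawn with matplotlib 3.10.9 in Python 3.11.15.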

Additional observations from a re-analysis of the deposited data

Results flagged for a closer look

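The treatment difference of Cxcl10 had opposite signs at day 5 and at each earlier day: all treated libraries were above vehicle at day 1 and in both pairs of day 3, and both were below at day 5, where its low-mRNA libraries, at 2.8 in vehicle and 1.2 under treatment, held under 3 reads each. The low-mRNA pair of day 3, at 0 in vehicle and 1.6 under treatment, was also under 3 reads, so neither low-mRNA pair gives a direction beyond counting error. The F test of the difference between days gave an unadjusted p of 0.0127 and an adjusted p of 0.8081 (limma), so it did not pass. Ifi205 was above vehicle in both treated libraries of day 1 and below it in both pairs of day 5, with an adjusted p of 0.8081 for the same test. Both were picked out because every pair of 1 day moved 1 way and every pair of another day the opposite way.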

How the results depend on the processing

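Counts of the 38 genes called are given against the values reported, and the cause of each change was not tested beyond the setting named. Treatment over days (18): no filter 8, no low-mRNA term 0, 8 libraries 31, limma-voom 30, and 12 to 26 with 1 library left out, the lowest without vehicle day 1 replicate 2. The same test gave 14 with a replicate block, 17 by quantile normalization, 18 and 23 with pseudocounts of 0.5 and 5, and 24 on the deposited values. Bst2, Dhx58, Ifit2, Isg15, Oas1a, Oas2, Oas3, Oasl2, Parp14, Rsad2 and Trim30a were kept in 12 of 12 leave-one-out fits. Day 1 (0): 2 by quantile normalization and on deposited values, 1 with pseudocount 5, 10 by limma-voom, 25 from 8 libraries or only the day's libraries, and 0 to 3 with 1 library left out. Day 3 (1): 0 with the replicate block, no filter, pseudocount 0.5 or no low-mRNA term, 2 from 8 libraries or only the day's libraries, 4 with pseudocount 5, deposited values or nuclear protein-coding scaling, 5 by quantile normalization, 10 by limma-voom, and 0 to 17 with 1 library left out, 17 without replicate 1 of either arm at day 3. Day 5 (0): 2 with only the day's libraries or nuclear protein-coding scaling, 3 with pseudocount 5 or deposited values, 5 by quantile normalization, 16 by limma-voom, 19 from 8 libraries, and 0 to 8 with 1 library left out, 8 without vehicle day 3 replicate 2. At day 5 the shares of all genes called higher were 1.58% by limma-voom and 1.69% by quantile normalization. Over days these shares were 3.7% by limma-voom, 3.73% by quantile normalization and 0.33% without the filter. By limma-voom they were 0.52% at day 1 and 0.31% at day 3. For vehicle day 5 they were 4.3% by limma-voom and 6.1% by quantile normalization. With 1 library left out, the highest counts over days and at day 3 came with more calls over all genes as well. The difference between days (0) stayed at 0 except without replicate 1 of either arm at day 3. There calls over all genes rose as well, so these fits show nothing particular to the 38. Vehicle day 3 (5): 0 with the replicate block, no filter or no low-mRNA term, 3 with pseudocount 0.5, 8 with only the days compared, 20 from 8 libraries, and 0 to 8 with 1 library left out. Vehicle day 5 (2): 0 with the replicate block or no low-mRNA term, 1 with no filter or pseudocount 0.5, 5 with pseudocount 5 or deposited values, 6 with nuclear protein-coding scaling, 7 by quantile normalization, 8 by limma-voom, 9 with only the days compared, 15 from 8 libraries, and 0 to 9 with 1 library left out. Reversed mean differences were those of Ifi205 (-0.052 by quantile normalization, -0.048 by nuclear protein-coding scaling, -0.028 without either low-mRNA library of day 3, the highest leave-one-out value being 0.11) and Zbp1 (-0.095 without replicate 1 of either arm at day 3, the highest leave-one-out value being 1.62). Without the low-mRNA term the day 5 vehicle differences of Parp14 and Samd9l were -1.02 and -0.45. Deviations of same-numbered libraries correlated at 0.0701, 0.899 and 0.897 at days 1, 3 and 5. The fit did not take the numbers to pair the libraries of day 1. At days 3 and 5 the low-mRNA term sets replicate 2 apart, as a replicate block does. Counts of 6 pairs match the day 1 libraries by number. For all 38 genes the arms of day 1 did not overlap. Only the libraries of the days compared gave no separate fit for the mean over days or the difference between days. Depth limits the low-mRNA libraries, where 16 of the 38 genes had under 10 reads in vehicle at each day, and 11 and 10 under treatment at days 3 and 5. The 8-library fit has 1 library a group at days 3 and 5.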
